A study of Saccharomyces cerevisiae with 4 samples.

Results

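The genes described are 60 genes of chromosome segregation in Saccharomyces cerevisiae, namely those of the kinetochore, the spindle checkpoint, microtubule motors and tubulin, the spindle pole body and the anaphase-promoting complex (APC). They were chosen by gene symbol from textbook knowledge of these complexes, and all 60 were matched among the 5539 genes named on the array, each by 2 spots. Their ratios come from 4 arrays with 2 channels, each comparing cells exposed to Congo red, a wall-damaging dye that attaches to chitin, for 4 h at 30 µg/ml with cells left untreated. Both cultures were of 1 strain, BY4741 -slt2, which lacks the MAP kinase Slt2 of the cell wall integrity pathway. Both grew in YEPD, a rich medium, at 24 °C and were parts of a divided culture, so treated and untreated cells share the deletion. Arrays 1 and 3 carried treated RNA in channel 2, and arrays 2 and 4 in channel 1. No wild-type strain is among the samples, so a response cannot be tied to the deletion here. The labels do not say whether the 4 arrays hold separate cultures or the same RNA hybridised again, and p-values therefore speak of the variation among these arrays alone, part or all of which may be technical.

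The kinetochore is built on centromeric DNA and holds the chromosome to the end of a spindle microtubule. Unattached or tension-free kinetochores activate the spindle checkpoint, which holds back Cdc20, an activator of the APC. Once released, the APC, a ubiquitin ligase, marks the securin Pds1 for destruction, which frees the separase Esp1 to cut the cohesin that joins sister chromatids. In budding yeast the spindle forms inside the nucleus between spindle pole bodies embedded in the nuclear envelope, and transcripts of many of these genes rise and fall with the cell cycle.

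Values are log2 ratios of treated over untreated RNA after each array was centred on its median, given as the mean ± SD over arrays (n = 4 unless stated). This direction is likely only. It rests on channel 2 being the numerator, with the untreated channel of array 1 labelled as the control, and if channel 1 is the numerator every sign reverses together. Across spots the deposited values of arrays 1 and 3 correlated with each other (r = 0.27), as did those of arrays 2 and 4 (r = 0.31), while each pair of opposite channel order correlated negatively (r between -0.38 and -0.19). Arrays 2 and 4 were therefore multiplied by -1. Had the authors already turned their ratios, the means below would measure channel order and not treatment. Taken that way, 70 of 4481 genes had an unadjusted p under 0.05 (limma), against 1234 with arrays 2 and 4 turned, an order that the choice of turning from these same values favours. A ratio gives no level of a transcript, only a difference between the cultures. Of the 60 genes, 46 had a value on every array and entered the test, as did 80.9% of all genes. The other 14 were measured on 3 arrays (11 genes), 2 arrays (2 genes) or 1 array (1 gene).

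No gene of the group passed limma's test in the analysis of all 4481 genes measured on 4 arrays, at a Benjamini-Hochberg adjusted p under 0.05. No gene of the whole array passed there either (0% called), and the lowest adjusted p was 0.0553 among the 46 and 0.0522 over all genes. At an unadjusted p under 0.05, 8 of the 46 stood higher with Congo red and 4 lower. These 12 genes compare with 27.5% of all genes tested. On 4 of 4 arrays 7 of the 46 genes were above 0 and 8 below it, where 20.4% of all genes tested were above and 21.3% below on every array (15 genes of the group in all, beside 41.7% of all genes). The median of the 46 means was 0.037, beside 0.022 for all genes tested. The largest differences, none past the threshold, were those of DOC1 above 0 and DSN1 below 0, and 8 of 46 means exceeded 1 log2 unit in size, beside 11.4% of all genes.

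A stricter filter, called the duplicate-spot analysis, kept a gene on an array only where both of its spots were measured and lay within 1 log2 unit of each other. It came from an earlier analysis of these data, where it was chosen after its calls had been seen, and the p-values make no allowance for this. It tested 24 of the 60 genes, and 1 of them rose with Congo red, the kinesin gene KIP1, while none fell. In the same analysis 16.8% of 2804 genes passed, 5.31% higher and 11.5% lower. The 24 means lay between -0.40 and 0.53. In the analysis of genes on 4 arrays, 26 of the 46 genes had a 95% interval that stayed within 1 log2 unit of 0 (56.5%), against 59.1% of all genes. For these 26 genes a change beyond 1 log2 unit lies outside the interval, and for the other 20 it does not.

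**Figure D1:**
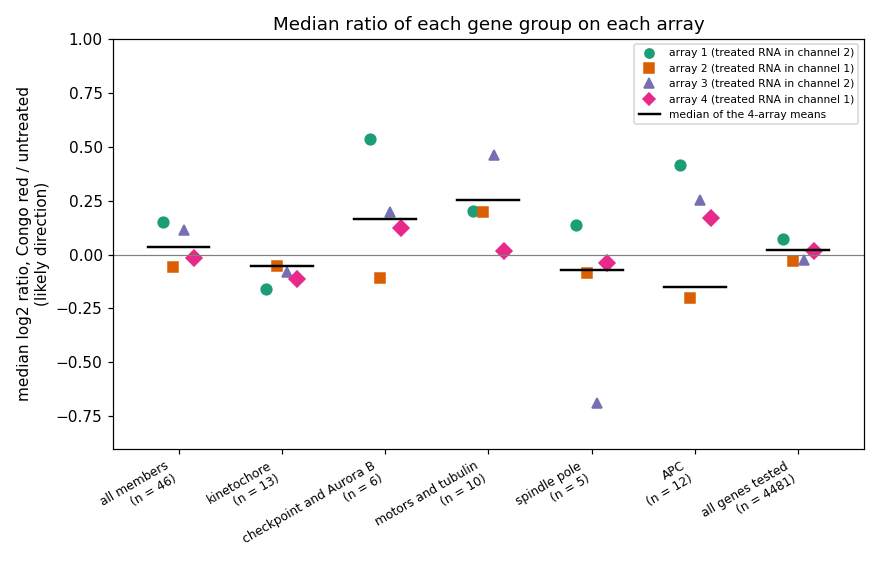
Median log2 ratio (vertical axis) of the 46 tested genes, of their 5 subgroups and of all 4481 genes tested, on arrays 1 to 4 (symbols), with the median of the 4-array means as a bar. The kinetochore median lay below 0 on 4 of 4 arrays at -0.16 to -0.055, the motor and tubulin median lay above 0 on 4 of 4 arrays, and the other subgroups lay on both sides of 0.

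The ranges of the array medians overlapped between subgroups, with 1 exception. Kinetochore genes (-0.16 to -0.055) lay below motor and tubulin genes (0.016 to 0.46). Differences between subgroups were not tested. The 10 tested motor, tubulin and microtubule genes had the highest median, 0.25, with medians of 0.20, 0.20, 0.46 and 0.016 on arrays 1 to 4. The 6 checkpoint and Aurora B genes followed at 0.16. The 13 kinetochore genes stood at -0.051, the 5 spindle pole genes at -0.070 and the 12 APC genes at -0.15. The APC median of -0.15 is of gene means, and the medians on single arrays were 0.41, -0.20, 0.25 and 0.17, so its sign is not settled. With the duplicate-spot filter the motor and tubulin median was -0.0032 over 6 genes and the kinetochore median 0.066 over 8, so the order of these groups depends on which genes are kept. Array medians spread with an SD from 0.044 for the kinetochore genes to 0.36 for the spindle pole genes.

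Among kinetochore genes, low ratios were found for parts of the Ndc80 and Mtw1 complexes, the links between the inner kinetochore and the microtubule. DSN1, which encodes a subunit of the Mtw1 complex, gave -1.82, -2.12, -2.00 and -3.59 on arrays 1 to 4. All 4 arrays were below 0 and array 4 was the lowest. Its mean was -2.38 ± 0.82 (0.192-fold, adjusted p = 0.0556, limma), short of the threshold. It passed when arrays were left uncentred (adjusted p = 0.0344) and when every run of 400 spots was centred on its own (adjusted p = 0.0412). It did not pass with 1 array left out (adjusted p from 0.103 to 0.217), and with placeholder values kept its mean was -3.93 (adjusted p = 0.198). No gene at all passed with 1 array left out or with placeholder values kept. Over all alternatives the adjusted p of DSN1 ranged from 0.0344 to 0.999, the highest with no array turned. On arrays 3 and 4 a single spot was measured, and on arrays 1 and 2 its spots lay up to 1.11 apart.

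SPC24, a subunit of the Ndc80 complex that faces the inner kinetochore, gave -1.07, -1.91, -1.65 and -0.66, below 0 on each array (mean -1.32 ± 0.57, adjusted p = 0.0701). Its partner SPC25 had a smaller difference of -0.31 ± 0.22 (adjusted p = 0.234), also below 0 on 4 arrays, with -0.010 on array 1. NDC80, which encodes the subunit that contacts the microtubule, stood at -0.10 ± 0.25 and its interval ran from -0.49 to 0.28. NUF2, the partner of NDC80, had no value on array 3 and gave -3.84, -1.72 and -2.40 on arrays 1, 2 and 4. Its mean was -2.65 ± 1.08 (n = 3, adjusted p = 0.0911 by limma among genes on at least 3 arrays). By their means NDC80 and SPC25 were thus near 0 and SPC24 and NUF2 more than 1 log2 unit below it, but none of these genes passed. NUF2 had a single spot on arrays 1 and 2, and its spots on array 4 stood at -3.40 and -1.41. SPC24 had a single spot on arrays 2 and 4.

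The other Mtw1 complex genes did not follow DSN1. NNF1 stood at -0.30 ± 0.20 (adjusted p = 0.224, and -0.15 with a trend with gene length removed), below 0 on every array, and NSL1 at 0.069 ± 0.24. MTW1 was measured on arrays 2 to 4, at 0.87, 1.56 and -0.38, on both sides of 0.

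Of the genes for centromere-binding proteins in the group, 4 were tested, and none passed. MIF2, the yeast CENP-C, gave 1.57, -0.00080, 1.57 and 0.41, a mean of 0.89 ± 0.81 (adjusted p = 0.173). Arrays 1 and 3, which share their channel order, were the high ones. CSE4, which encodes the centromeric histone H3 variant, stood at 0.17 ± 0.22, CBF1, a factor that binds centromeres and promoters, at 0.18 ± 0.20 and CEP3, of the CBF3 complex, at 0.063 ± 0.11. The intervals of CSE4, CBF1 and CEP3 stayed between -0.25 and 0.53. CTF13, another CBF3 gene, was measured on arrays 1 to 3 at 3.24, 0.49 and -0.076, so its mean rests on array 1.

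The Dam1 complex couples kinetochores to microtubule ends. DAD1 stood at -0.32 ± 0.19, below 0 on 4 of 4 arrays (adjusted p = 0.201). Its spots lay on opposite sides of 0 on array 1 (0.87 and -1.43) and array 3 (-0.26 and 0.094). DAD1 spans 285 bp, and ratios on these arrays moved with gene length (rank correlation 0.23 over 4476 genes, 0.18 over the 46). With the length trend removed its mean was 0.083, on the other side of 0. DAD2 stood at 0.12 ± 0.31. DAM1 gave -1.92, 2.33, 1.58 and -2.19, so the arrays lay on opposite sides of 0 around a mean of -0.051 ± 2.34. Its spots stood at 0.75 and 3.91 on array 2 and at -3.45 and -0.94 on array 4. Arrays 1 and 3 held a single spot of it. ASK1, without array 3, was above 0 on the arrays measured at 0.99, 1.46 and 3.52 (n = 3, adjusted p = 0.150), and DUO1 was measured on 2 arrays, at -0.38 and -2.43.

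**Figure D2:**
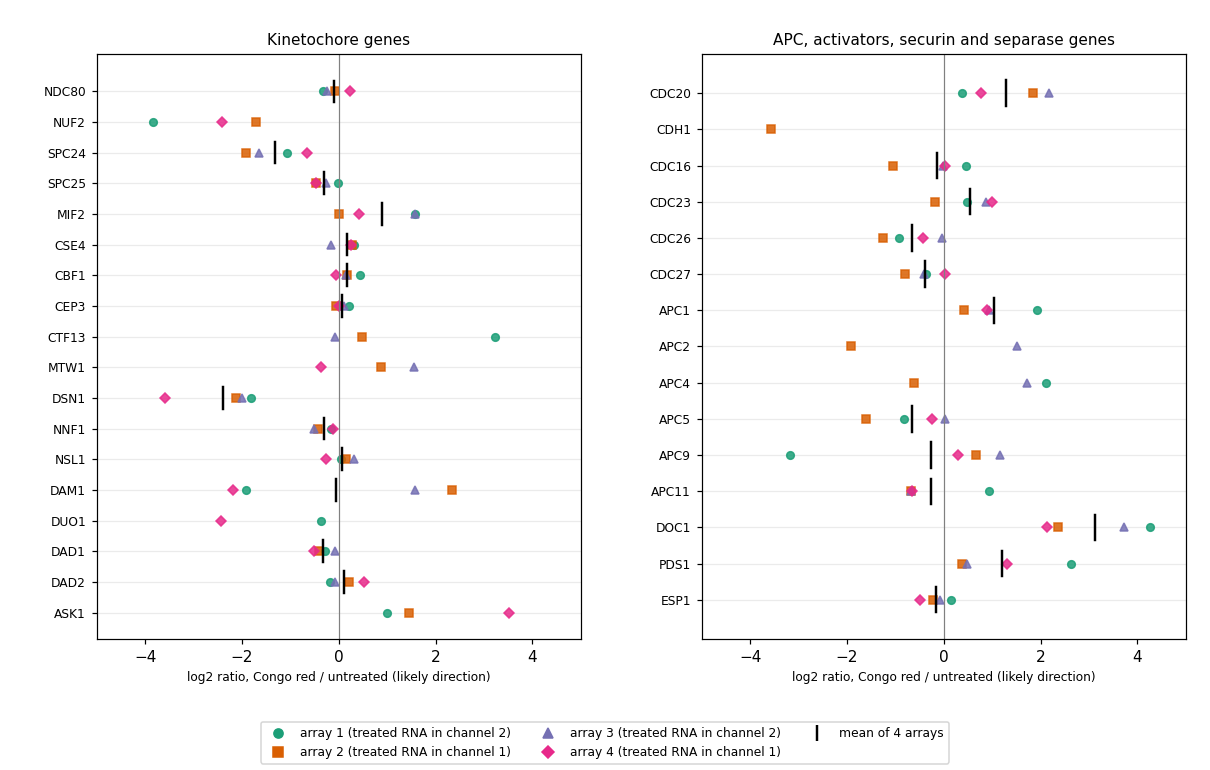
Log2 ratio (horizontal axis) of each kinetochore gene (left) and each gene of the APC, its activators, securin and separase (right) on the arrays that measured it, with the mean as a bar where 4 arrays did. DSN1 and SPC24 lay below 0 on every array and DOC1, APC1, CDC20 and PDS1 above it, while DAM1 and APC9 had arrays on both sides.

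Most genes of the spindle checkpoint, which delays anaphase until kinetochores are attached, stayed near 0 or varied between arrays. MAD1, which recruits Mad2 to kinetochores, gave 0.16, -0.067, 0.19 and -0.24, a mean of 0.011 ± 0.20 with an interval from -0.34 to 0.37. MAD2, an inhibitor of Cdc20, stood at -0.11 ± 0.41 and was above 0 on array 1 alone (0.46). MAD3, which joins Mad2 in that inhibition, gave 1.94, -0.65, 0.42 and -0.15. Its mean of 0.39 ± 1.12 rests on array 1, and without that array it was -0.13. MPS1, a kinase of the checkpoint and of spindle pole duplication, gave 0.91, -0.35, 0.32 and 0.40 (mean 0.32 ± 0.52, adjusted p = 0.409), and its mean was 0.12 without array 1 and 0.54 without array 2. BUB1, the kinetochore-bound checkpoint kinase, was below 0 on the 3 arrays that measured it, at -0.53, -0.69 and -0.17 (n = 3, adjusted p = 0.223). Its spots stood at -0.0086 and -1.37 on array 2. On array 4 they lay on opposite sides of 0 (-0.45 and 0.11). BUB3, which brings Bub1 and Mad3 to kinetochores, gave -1.53, 1.32 and 0.48 on arrays 1 to 3, on both sides of 0.

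Ipl1, the yeast Aurora B kinase, releases faulty attachments together with Sli15 and Bir1. SLI15, which encodes the activator and scaffold of Ipl1, gave 0.61, 0.20, 0.21 and 0.44, above 0 on every array (mean 0.36 ± 0.20, 1.29-fold, adjusted p = 0.172). Its spots lay on opposite sides of 0 on array 3 (-0.056 and 0.47) and array 4 (-0.049 and 0.93), and with the spot nearest 0 its mean was 0.015. With spots averaged, it was the only gene of the checkpoint and Aurora B subgroup with 4 arrays on one side. BIR1, the yeast survivin, stood at -0.013 ± 0.39. IPL1 itself, measured on 3 arrays, gave 2.58, 1.70 and -1.07 on arrays 1, 2 and 4 and had no settled direction.

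KIP1, a kinesin-5 motor that slides antiparallel microtubules apart to separate the spindle poles, gave 0.63, 0.60, 0.52 and 0.38 on arrays 1 to 4. Both of its spots were above 0 on every array, from 0.21 to 0.77. It had the mean 0.53 ± 0.12 (1.45-fold, interval 1.17 to 1.80), with an adjusted p of 0.0276 in the duplicate-spot analysis and 0.0854 among all genes on 4 arrays (limma). The call was lost in the duplicate-spot analysis without any 1 array, with means from 0.50 to 0.59 and adjusted p from 0.0708 to 0.115. Without array 3 or array 4 no gene at all passed (0 of 2872 and 0 of 3019), so the loss there is not particular to KIP1. Without array 1 or array 2, 336 of 3542 and 215 of 2861 genes passed. The KIP1 call was also lost after the trend with gene length was removed (mean 0.40, adjusted p = 0.0740), where 239 of 2801 genes passed. KIP1 is 3336 bp long.

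CIN8, the other kinesin-5 gene, gave 0.45, 0.024, 0.40 and -0.47, a mean of 0.10 ± 0.43 with an interval from -0.42 to 0.62. KIP1 exceeded CIN8 on 4 of 4 arrays, by 0.18, 0.58, 0.12 and 0.85. The mean difference of 0.43 ± 0.35 had an exact two-sided sign permutation p of 0.125, the smallest that 4 arrays allow (0.188 adjusted over the 3 pairs of genes tested).

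Among the other kinesin genes, KIP3, a motor that shortens microtubules, was below 0 on every array at -0.41, -0.0074, -0.55 and -0.25 (mean -0.30 ± 0.23, adjusted p = 0.241). KIP2, which moves to plus ends of cytoplasmic microtubules, stood at 0.99 ± 1.47, a mean set by 3.15 from a single spot on array 2. KAR3, a minus-end motor also needed for nuclear fusion, was high on arrays 1 and 3 (0.84 and 0.66) and low on arrays 2 and 4 (-0.061 and -0.69), which follows the channel order. Its spots on array 1 stood at -0.43 and 2.10. In a model with channel order as a second coefficient, that coefficient was 0.56 for KAR3 (log2 of channel 2 over channel 1). It did not pass (adjusted p = 0.872, limma).

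BIK1, the yeast CLIP-170, which follows growing microtubule ends, gave 0.74, 1.98, 2.41 and 0.57. All 4 arrays were above 0 and both spots were above 0 on each, but the spots lay up to 1.63 apart. Its mean of 1.43 ± 0.91 (2.69-fold, adjusted p = 0.102) did not pass. STU1, of the CLASP family and needed for spindle stability, stood at 0.32 ± 0.36, with array 4 below 0. BIM1, the yeast EB1, gave -1.52, 0.22 and 2.91 on 3 arrays, ASE1, which bundles midzone microtubules, gave -2.00, 1.04 and 1.05, and STU2, a microtubule polymerase, gave 0.12, 1.12 and -1.11. None of BIM1, ASE1 and STU2 had its arrays on one side of 0. The BIM1 spots on array 4 stood at 0.86 and 4.96, and its other values were single spots.

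The tubulin genes differed among themselves. TUB2, the single beta-tubulin gene, stood at -0.11 ± 0.23 with an interval from -0.48 to 0.26. TUB1, the major alpha-tubulin gene, gave -0.29, -1.10, -0.29 and 0.081 (mean -0.40 ± 0.50, adjusted p = 0.299). TUB3, the minor alpha-tubulin gene, gave -0.35, 2.76, 0.64 and 3.60, high on arrays 2 and 4 and low on arrays 1 and 3 (mean 1.66 ± 1.83, adjusted p = 0.214). Arrays 2 and 4 share their channel order, and in a model with channel order as a second coefficient that coefficient was -1.52 for TUB3, as a log2 ratio of channel 2 over channel 1. It did not pass (adjusted p = 0.872, limma), nor did that of any gene on the array, and the TUB3 ratio itself had an adjusted p of 0.113 in that model. The TUB3 value on array 4 came from a single spot, and without array 4 the TUB3 mean was 1.02. TUB3 exceeded TUB1 by 2.06 ± 1.92, with arrays at -0.053, 3.85, 0.93 and 3.52 and an exact two-sided p of 0.25 (0.25 adjusted over the 3 pairs). The alpha-tubulin genes are close copies, and whether spots for one also bind transcripts of the other was not tested, so their separate ratios are uncertain.

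**Figure D3:**
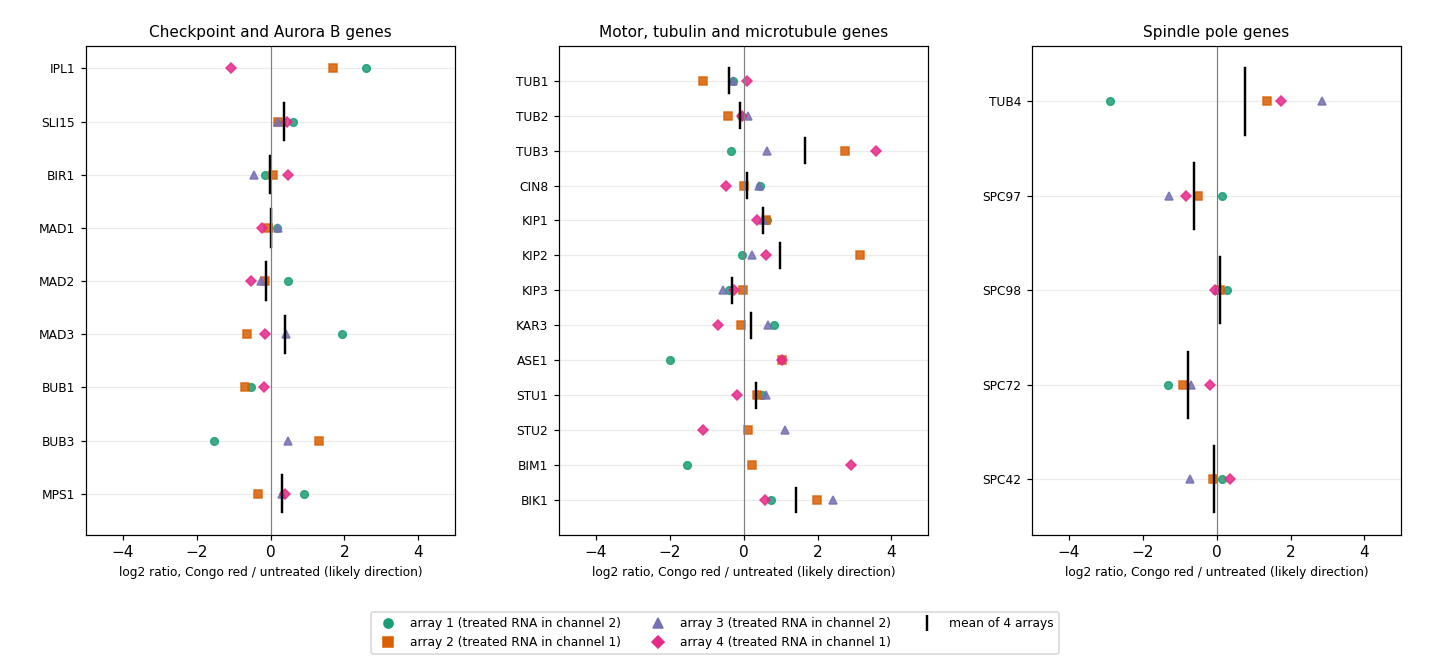
Log2 ratio (horizontal axis) of each checkpoint and Aurora B gene (left), each motor, tubulin and microtubule gene (centre) and each spindle pole gene (right) on the arrays that measured it, with the mean as a bar where 4 arrays did. KIP1 had its 4 arrays between 0.38 and 0.63, whereas TUB3 and TUB4 spread over more than 3 log2 units.

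The spindle pole body nucleates microtubules through the gamma-tubulin complex, formed by Tub4 with Spc97 and Spc98. TUB4 gave -2.90, 1.35, 2.85 and 1.74, with array 1 opposite to the other arrays (mean 0.76 ± 2.52, adjusted p = 0.642). Its spots on array 1 stood at -4.81 and -0.98, and its mean was 1.98 without array 1 and 0.065 without array 3. SPC97 gave 0.14, -0.49, -1.28 and -0.84 (mean -0.62 ± 0.60, adjusted p = 0.203). Without array 1 it passed in the duplicate-spot analysis at -0.87 (adjusted p = 0.0387). There 336 of 3542 genes passed, and 3 of the 32 tested from the group. SPC98, the close partner of Spc97 in the complex, stood at 0.089 ± 0.14 with an interval from -0.23 to 0.41.

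SPC72, which docks the gamma-tubulin complex on the cytoplasmic side, was below 0 on every array at -1.31, -0.90, -0.69 and -0.18 (mean -0.77 ± 0.47, adjusted p = 0.113). Its spots contradicted each other. The first spot gave -1.31, -4.06, -1.73 and -1.23, and the second gave 2.26, 0.36 and 0.86 on arrays 2 to 4 and no value on array 1. Taking the spot nearest 0 gave a mean of 0.54, so no direction can be assigned to SPC72. SPC42, which forms the crystalline core of the pole body, stood at -0.070 ± 0.47 with arrays on both sides of 0.

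Among APC genes, DOC1, which encodes the subunit that helps the complex hold its substrates, had the highest ratio of the 60 genes that 4 arrays measured. It gave 4.27, 2.36, 3.73 and 2.14 on arrays 1 to 4, all above 0. Its mean of 3.13 ± 1.04 (8.72-fold, interval 4.11 to 18.5) had an adjusted p of 0.0553 (limma) and did not pass. It passed when arrays were left uncentred (adjusted p = 0.0181) and when every run of 400 spots was centred on its own (adjusted p = 0.0451). With 1 array left out it did not pass (adjusted p from 0.103 to 0.217), and no gene at all did. Over all alternatives the adjusted p of DOC1 ranged from 0.0181 to 0.999. A single spot was measured on arrays 1 and 2, and the spots stood at 5.40 and 2.06 on array 3, a gap wider than its mean.

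APC1, the large scaffold subunit, gave 1.93, 0.42, 0.94 and 0.89, above 0 on every array (mean 1.05 ± 0.64, adjusted p = 0.102). Array 1 was the highest, where its spots stood at 2.85 and 1.02. Without array 1 it passed in the duplicate-spot analysis at 0.75 (adjusted p = 0.0398), where 336 of 3542 genes passed. CDC26, a small subunit that stabilises Cdc16, was below 0 on every array at -0.93, -1.25, -0.033 and -0.44 (mean -0.66 ± 0.54, adjusted p = 0.163). CDC26 spans 375 bp, and its mean was -0.36 with the length trend removed and -0.31 with runs of 400 spots centred. Its spots on array 3 stood at 0.10 and -0.17.

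The other subunits did not share a direction. CDC16, CDC23 and CDC27, which encode the repeat-containing arm of the complex, stood at -0.14 ± 0.64, 0.54 ± 0.53 and -0.38 ± 0.34. APC5, another scaffold subunit, stood at -0.66 ± 0.72. APC11, which carries the catalytic RING finger, was at 0.93 on array 1 and between -0.68 and -0.66 on the other arrays, a mean of -0.27 ± 0.80. Without array 1 it passed in the duplicate-spot analysis at -0.67 (adjusted p = 0.0379), where 336 of 3542 genes passed. APC9 stood at -0.26 ± 1.98, with -3.19 on array 1 and all other arrays above 0. Its spots on array 1 stood at -5.08 and -1.30. APC4, a platform subunit, was measured on arrays 1 to 3 at 2.11, -0.63 and 1.71, and APC2, the cullin subunit, on arrays 2 and 3 at -1.91 and 1.51. The APC2 spots stood at 0.014 and -3.83 on array 2, and array 3 held a single spot of it. Of the 9 subunits tested, 2 were above 0 on 4 of 4 arrays and 1 below.

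CDC20, the activator that starts anaphase and the target of the checkpoint, gave 0.37, 1.84, 2.18 and 0.77. All 4 arrays were above 0, with a mean of 1.29 ± 0.86 (2.44-fold, adjusted p = 0.111). Its spots lay on opposite sides of 0 on array 1 (-0.23 and 0.97) and 1.83 apart on array 3 (1.26 and 3.10). With the spot nearest 0 its mean was 0.86. CDH1, the activator that takes over at mitotic exit, was measured by a single spot on array 2 alone, at -3.57. CDC20 stood at 1.84 there, but 1 spot gives CDH1 no settled direction.

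PDS1, the securin that the APC destroys, gave 2.63, 0.38, 0.49 and 1.30, also above 0 on every array (mean 1.20 ± 1.04, adjusted p = 0.158). Its spots disagreed on array 1 (0.92 and 4.34) and on array 4 (0.036 and 2.57). The mean was 0.37 with the spot nearest 0 and 0.72 without array 1. ESP1, the separase held by Pds1, stood at -0.16 ± 0.27 with an interval from -0.55 to 0.24. PDS1 exceeded ESP1 on 4 of 4 arrays, by 1.36 ± 0.94, with an exact two-sided p of 0.125, the smallest that 4 arrays allow (0.188 adjusted over the 3 pairs).

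**Figure D4:**
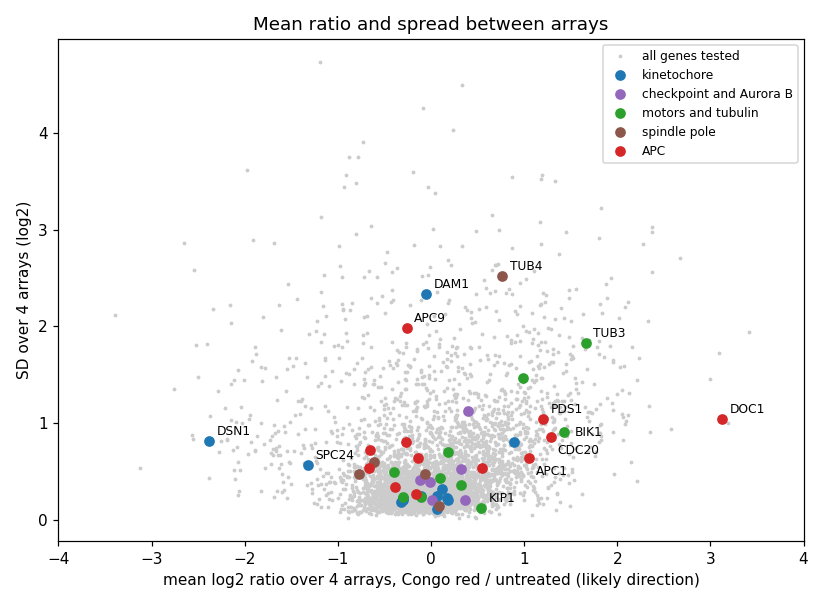
Mean log2 ratio over 4 arrays (horizontal axis) against the SD over arrays (vertical axis) for the 46 tested genes, coloured by subgroup, and for all 4481 genes tested in grey. KIP1 combined a mean of 0.53 with an SD of 0.12, whereas most genes of the group with means beyond 1 had SDs above 0.6.

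Spread between arrays was wide beside most of these differences. The median SD of the 46 genes was 0.48, beside 0.38 for all genes tested, and 8 of the 46 (17.4%) had an SD over 1, beside 14.8% of all genes. It was lowest for the 13 kinetochore genes, with a median SD of 0.24, and highest for the 12 APC genes at 0.68. Paired spots tell of error within an array. Where both spots of a gene of the group were measured, 155 of 192 pairs (80.7%) lay within 1 log2 unit, beside 87.8% for all genes. On at least 1 array the spots lay further apart in 26 of the 60 genes, 10 of them among the 15 APC genes and 7 among the 18 kinetochore genes. Signal over background was not analysed here, so the part of weak hybridisation in this disagreement was not tested.

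**Figure D5:**
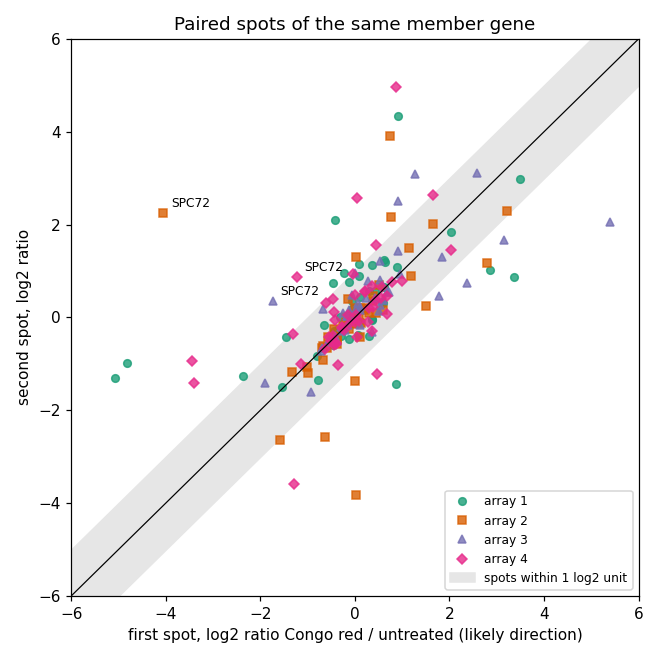
Log2 ratio of the second spot (vertical axis) against that of the first (horizontal axis) for each gene of the group and each array where both were measured, with a grey band where spots lie within 1 log2 unit. Of the 192 pairs 155 fall in the band, and SPC72 falls outside it on arrays 2 to 4, with its spots on opposite sides of 0.

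Other genes that act beside these complexes were taken from lists drawn up from textbook knowledge. Dynein, dynactin and spindle positioning genes had a median of 0.046 over 13 genes, and 1 of 6 rose in the duplicate-spot analysis, where 5.31% of all genes rose and 16.8% passed in either direction. This was DYN1, the heavy chain of dynein, the motor that pulls the spindle into the bud neck. It gave 1.51, 0.77, 0.65 and 1.22 (mean 1.04 ± 0.40, 2.06-fold, adjusted p = 0.0126, limma). The call held with the length trend removed (mean 1.15, adjusted p = 0.0184) and without array 1 or array 2 (adjusted p = 0.0320 and 0.0190). It was lost without array 3 or array 4 (adjusted p = 0.0704 and 0.0765), where no gene at all passed (0 of 2872 and 0 of 3019).

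Of 9 cohesin and condensin genes 1 rose in the duplicate-spot analysis (5.31% of all genes did), the cohesin gene SMC1 (0.55 ± 0.18, adjusted p = 0.0295). Of 5 other spindle pole body genes 1 rose, SPC110, which anchors the gamma-tubulin complex on the nuclear side (0.63 ± 0.32, adjusted p = 0.0326). Neither passed with the length trend removed (SMC1 0.43, adjusted p = 0.0724, and SPC110 0.49, adjusted p = 0.0846). With 1 array left out, SMC1 passed in no case and SPC110 passed only without array 2 (adjusted p = 0.0428). Without array 3 or array 4 no gene at all passed. SMC1, SPC110, DYN1 and KIP1 span 3678, 2835, 12279 and 3336 bp, against a median of 1249.5 bp for all genes tested.

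The remaining lists held few calls. None of 8 other kinetochore genes, 6 tubulin folding genes, 8 genes of the G2 and M phase cluster of CLB2 or 6 genes of G1 and S phase passed in the duplicate-spot analysis, where 16.8% of all genes passed. Of 6 genes of M and G1 phase 1 fell, beside 11.5% of all genes, MCM3 of the replicative helicase (-0.88 ± 0.22, adjusted p = 0.0111). The MCM3 call was lost without array 3 or array 4 (adjusted p = 0.0704 and 0.0677), where no gene at all passed. It held without array 1 or array 2 (adjusted p = 0.0320 and 0.0179). No gene of the 4 lists without calls passed in the analysis of genes on 4 arrays either, where 0% of all genes did. The CLB2 cluster had a median of 0.35 over 15 genes, beside 0.022 for all genes tested. On 4 of 4 arrays 5 of the 15 were above 0 and 1 below, beside 20.4% and 21.3% of all genes. CLB2 itself, a mitotic cyclin, gave 0.62, 0.36, 0.68 and 0.55 (mean 0.55 ± 0.14, adjusted p = 0.0843), and the list also holds CDC20, KIP2 and ASE1. In the other direction HOF1, a cytokinesis gene of that list named after its values were seen, gave -1.74, -2.36, -2.09 and -2.09 (mean -2.07 ± 0.25). Its adjusted p of 0.0522 (limma), a value it shared with other genes of the array, missed the threshold. Neither CLB2 nor HOF1 had spots that met the duplicate-spot filter on every array. Other uncalled genes of the lists also had an adjusted p under 0.1 (limma), in both directions, and are not named. Genes of G1 and S phase had a median of -0.0087 over 10 genes. SPC105, of the outer kinetochore, stood at 0.15 ± 0.29, CBF2, of the centromere-binding CBF3 complex, at -0.083 ± 0.13 and CMD1, calmodulin, at -0.41 ± 0.21 (adjusted p = 0.0674 in the duplicate-spot analysis). The 3 tested APC genes outside the 60 had a median of 0.51, and none had spots that met the duplicate-spot filter on every array.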

How the data were processed

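The authors deposited log2 ratios of both channels, 1 per spot, for 12800 spots on each of 4 arrays. The labels and files used here name no scanner, normalization, dye or numerator. The deposited medians were 0.43, -0.25, 0.30 and 0.64, and each was subtracted. A top value of 16.61, the log2 of 100000, was set to missing as a placeholder (31 to 68 spots an array), leaving 10759 to 11640 spots. Arrays with treated RNA in channel 1 were multiplied by -1. The platform annotation gave 11138 spots 1 symbol and left 1662 unnamed here, and symbols of 5534 of 5539 genes, with their lengths, were taken from RefSeq genes of assembly R64. Spots of a gene were averaged. All 4 arrays formed 1 group, and limma 3.58.1 under R 4.3.3 tested their mean ratio against 0 by lmFit and eBayes, with Benjamini-Hochberg adjustment over all genes tested and a threshold of 0.05. The script was tested on simulated data. Pairs of genes were compared by exact sign permutation over arrays.

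The members and lists were chosen with earlier results of these data known. Values are given for the 5 genes of each subgroup with the largest absolute moderated t, for any gene called, for set pairs (TUB3 and TUB1, KIP1 and CIN8, CDC20 and CDH1, PDS1 and ESP1) and, in short, for the rest. Alternatives covered the duplicate-spot filter, centring, gene length (lowess on log2 length), missing values, spot summary, the placeholder, channel order, eBayes options, turning and each array left out. The number of arrays limits the precision.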

Additional observations from a re-analysis of the deposited data

Results flagged for a closer look

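Of 34 results tested for an array standing apart (28 genes with 4 arrays and 6 medians), 1 was found by Dixon's criterion, which chance meets in about 1 of 20 groups. DSN1 stood at -3.59 on array 4, against -2.12 to -1.82 on the other arrays. The gap made up 0.833 of its range. On array 4 only 1 of its spots was measured.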

How the results depend on the processing

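With the duplicate-spot filter, 1 gene was called higher, 1 gene was above 0 and 3 below 0 on 4 of 4 arrays, and the medians of kinetochore and of motor and tubulin genes were 0.066 and -0.0032. With values as deposited, 1 gene was called higher (DOC1) and 1 lower (DSN1), 3 were below 0 on 4 of 4 arrays and the kinetochore median was 0.033. The median of all genes was then 0.11, against 0.022 for centred values, and 93 of 4481 genes passed, 48 of them higher. With runs of 400 spots centred, 1 was called higher (DOC1) and 1 lower (DSN1), with 214 genes called in all, 54 higher. With genes on at least 3 arrays the kinetochore median was 0.063. With the spot nearest 0 it was 0.0055, and 5 genes were below 0 on 4 of 4 arrays. With no array turned, 3 genes were above and 2 below 0 on 4 of 4 arrays, and the kinetochore and APC medians were 0.089 and 0.23. Leaving out 1 array at a time gave 0 genes called, both in the group and among all genes tested. Genes with values on the 3 arrays left were tested, which were 48, 46, 52 and 49 of the group without arrays 1, 2, 3 and 4. Of these, 9 to 12 were above 0 and 8 to 12 below 0 on all 3 arrays. No share of all genes is given for 3 arrays, so these counts do not compare with those on 4 arrays. With 1 array left out, medians ranged from 0.021 to 0.095 for all genes of the group and from -0.11 to 0.045 for kinetochore genes. They ranged from -0.0029 to 0.23 for checkpoint and Aurora B and from 0.045 to 0.49 for motor and tubulin genes. For spindle pole genes they ranged from -0.22 to 0.065 and for APC genes from -0.16 to 0.15. Across these settings, whose genes also differ, the kinetochore, checkpoint, spindle pole and APC medians had no stable sign.

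Of the 28 genes with values given in full and 4 arrays, none was called in the analysis of genes on 4 arrays, and these changed sign. With the length trend removed, DAD1 stood at 0.083, MAD1 at -0.13, MAD2 at 0.052, CIN8 at -0.046 and SPC98 at -0.055. With the spot nearest 0, DAD1 stood at 0.017, MAD1 at -0.055 and SPC72 at 0.54. SPC98 stood at -0.025 with runs of 400 spots centred and SPC42 at 0.014 as deposited. With no array turned, DSN1 stood at 0.47, DAD1 at 0.14, MAD2 at 0.22, TUB1 at 0.11, TUB3 at -1.52, TUB4 at -0.79, SPC97 at 0.047, CDC20 at -0.015, CDC26 at 0.18 and ESP1 at 0.19. With 1 array left out, CIN8 ranged from -0.015 to 0.29, MAD1 from -0.049 to 0.095, MAD2 from -0.31 to 0.019, MAD3 from -0.13 to 0.74 and SPC42 from -0.22 to 0.15. The causes of these changes were not tested. The length trend and each left-out array in the duplicate-spot analysis were added after its calls had been seen. No paired analysis was possible because all arrays form 1 group and each already pairs both cultures.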
